A study of Mus musculus with 6 samples.

Results

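The 39 listed collagen genes of the mouse were followed in Pax7-nGFP+ limb cells at E17.5 and at E12.5. A probe set was assigned to a member through its symbol in the platform annotation, and of several probe sets for a gene the brightest, by its mean over the 6 arrays, was used. This gave 38 members of 18182 genes measured, and Col9a2 was not analysed here. The members comprised 11 fibrillar collagens, 8 basement membrane collagens, 8 fibril-associated collagens, 4 membrane collagens and 7 of other types.

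Cells with nuclear GFP were sorted from limbs of Tg:Pax7-nGFP mice, a transgenic line in which Pax7, the paired-box gene of skeletal muscle stem and progenitor cells, drives the reporter. Both groups carried this transgene on a mixed C57BL/6:DBA2 background, and age was the only difference between them that the labels give. From E17.5 limbs (fetal stage) 3 arrays were made, and from E12.5 limbs (embryonic stage) 3. Each set was labelled as biological replicates A, B and C. The labels do not say how many embryos were pooled for an array. All levels below are GCRMA signals in log2 units, with means ± SD (n = 3 at each age). A difference is the E17.5 mean less the E12.5 mean, also in log2 units, followed by its standard error (SE) and by the Benjamini-Hochberg adjusted p that limma gave over all genes. A gene was called when that adjusted p was under 0.05.

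Collagens are secreted or transmembrane proteins built around a triple helix of repeating glycine-containing triplets. Fibrillar collagens assemble into the tensile fibrils of connective tissue, and fibril-associated collagens coat those fibrils. Type IV collagen forms the sheet-like scaffold of basement membranes, to which the multiplexins (types XV and XVIII) are attached. Muscle fibres and their stem cells, the satellite cells, lie within such a basement membrane, while type VI collagen links it to the surrounding interstitial matrix. Membrane collagens span the plasma membrane and carry their collagenous part outside the cell.

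At E17.5 the genes of the common type IV network, of both multiplexins and of 2 type VI chains were higher, and a cartilage-type fibril-associated collagen and 2 membrane collagens were lower. In all, 13 members were higher, 3 were lower and 22 were not called. Over all genes 8.21% were higher and 8.73% lower, so that 16.9% were called in either direction, against 42.1% of the collagen members (16 of 38). The arrays of the ages did not overlap for 21 members (15 with E17.5 above, 6 with E17.5 below), which is 55.3% of the members against 31.4% of all genes. Among the 6 below, Col24a1 (difference -0.23) had a mean under 4 at both ages. The median difference of the members was 0.26, against 0.0033 over all genes. Brighter genes were called more often. Of the 25 members averaging 6 or more, 60% were called, against 26.4% of all genes averaging 6 or more. The arrays of the ages did not overlap for 76% of these members, against 48% of such genes.

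**Figure D1:**
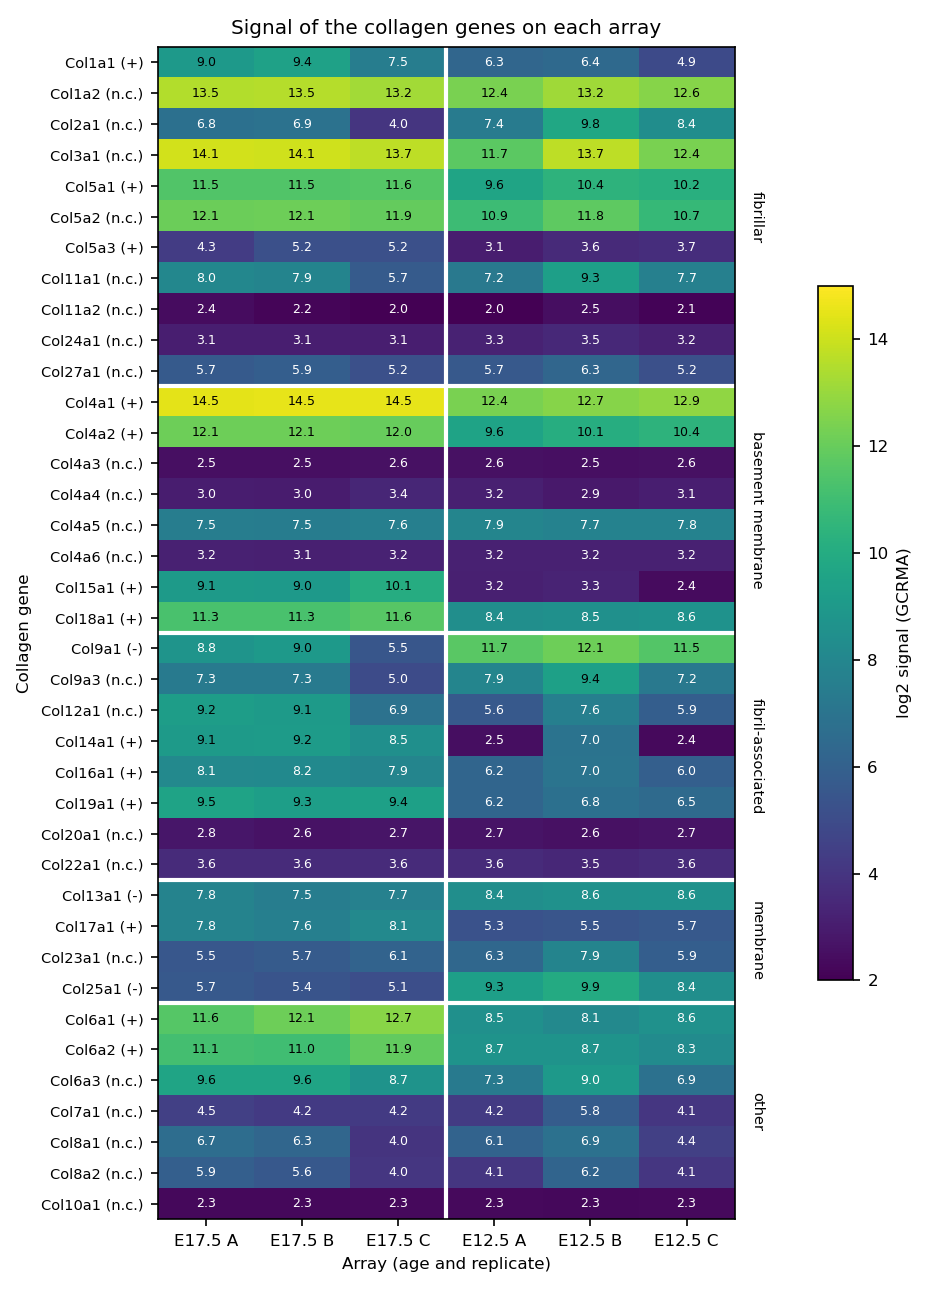
Log2 signal (GCRMA) of the 38 measured collagen genes (rows, grouped by class) on the 3 E17.5 and the 3 E12.5 arrays (columns). A plus marks a gene called higher at E17.5, a minus a gene called lower and n.c. a gene that was not called. Col15a1 stood at 9.02 to 10.06 at E17.5 and at 2.40 to 3.32 at E12.5, while 8 members stayed under a mean of 4 at both ages.

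Signals under about 4 hold little specific signal after GCRMA, and 42.8% of all genes had a mean in that range. Among the members, 8 had a mean under 4 at both ages and none of these was called. They were Col4a3 and Col4a4, chains of the kidney basement membrane, Col4a6, the partner chain of Col4a5, Col10a1 of hypertrophic cartilage, the fibrillar genes Col11a2 and Col24a1, and the fibril-associated genes Col20a1 and Col22a1. Col22a1 is known from the junction between muscle and tendon. The differences of these 8 genes lay between -0.23 and 0.11.

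The type IV genes called higher, Col4a1 and Col4a2, lie head to head on chromosome 8 and encode the chains of the common type IV network. Their promoter windows are shown because both genes moved and the windows share bases. Each window runs from 250 bases before the annotated start to 50 bases after it (RefSeq, GRCm38.p6) and is written 5′ to 3′ on the gene's own strand. Capitals mark the 78 bases that belong to both windows. The annotated starts are 21 bases apart, and the annotated 5′ ends of the genes overlap.
Col4a1 (chr8:11312777-11313076, minus strand): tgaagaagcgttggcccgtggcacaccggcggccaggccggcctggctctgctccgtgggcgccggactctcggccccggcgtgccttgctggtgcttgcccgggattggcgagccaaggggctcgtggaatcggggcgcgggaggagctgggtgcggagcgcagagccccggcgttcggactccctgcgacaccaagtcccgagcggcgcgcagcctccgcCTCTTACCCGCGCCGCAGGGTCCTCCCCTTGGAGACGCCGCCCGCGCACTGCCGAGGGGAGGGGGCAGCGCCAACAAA
Col4a2 (chr8:11312555-11312854, plus strand): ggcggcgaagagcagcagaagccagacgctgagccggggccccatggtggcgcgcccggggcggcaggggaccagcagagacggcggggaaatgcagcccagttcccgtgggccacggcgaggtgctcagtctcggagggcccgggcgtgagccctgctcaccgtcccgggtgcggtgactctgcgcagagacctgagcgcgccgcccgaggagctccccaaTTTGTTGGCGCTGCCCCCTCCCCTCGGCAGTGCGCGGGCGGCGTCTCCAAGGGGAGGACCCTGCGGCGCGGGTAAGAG

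The promoter windows of Col15a1, with the largest difference above 0 among the members, and of Col25a1, the only fall that was called under every alternative fit, are shown for comparison. Capitals mark 3 promoter motifs, searched on both strands. The motif known as the TATA box was spelled TATAAA. For the motif of factor NF-Y the letters were CCAAT, and the GC box was searched as GGGCGG.
Col15a1 (chr4:47207762-47208061, plus strand): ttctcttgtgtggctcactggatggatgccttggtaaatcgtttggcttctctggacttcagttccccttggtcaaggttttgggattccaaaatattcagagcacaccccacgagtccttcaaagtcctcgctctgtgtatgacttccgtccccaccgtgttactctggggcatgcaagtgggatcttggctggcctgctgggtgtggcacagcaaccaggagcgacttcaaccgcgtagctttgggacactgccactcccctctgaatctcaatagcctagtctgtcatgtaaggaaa
Col25a1 (chr3:130180595-130180894, plus strand): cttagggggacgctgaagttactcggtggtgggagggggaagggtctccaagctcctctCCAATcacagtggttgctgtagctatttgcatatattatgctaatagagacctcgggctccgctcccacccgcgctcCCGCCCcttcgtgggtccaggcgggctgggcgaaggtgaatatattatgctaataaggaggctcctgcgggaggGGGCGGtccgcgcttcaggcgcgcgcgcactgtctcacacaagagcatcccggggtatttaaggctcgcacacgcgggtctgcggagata
None of these motifs is in the Col15a1 window, and that of Col25a1 holds 1 CCAAT and 2 GGGCGG. The table held 34 windows of 31 members. GGGCGG was in 20 of these (58.8%), against 35.66% of all 32851 windows. CCAAT was in 12 (35.3%), against 37.41%, and TATAAA in 5 (14.7%), against 13.62%. The windows of members had a median GC content of 59.8%, against 52.7% over all windows. These matches describe letters and not binding.

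Among the 8 basement membrane collagens 4 were higher, none was lower and 4 were not called, with a median difference of 0.99. In this class 50% were called, against 16.9% of all genes. Col4a1 had 14.49, 14.52 and 14.51 at E17.5, against 12.40, 12.66 and 12.86 at E12.5 in replicates A, B and C. Every E17.5 array lay above every E12.5 array. The difference was 1.87 (SE 0.13, adjusted p = 0.000245), or 3.65-fold. Col4a2 had 12.11, 12.11 and 12 at E17.5, against 9.56, 10.08 and 10.38 at E12.5, again without overlap. It rose by 2.07 (SE 0.20, adjusted p = 0.000967), a difference close to that of its head-to-head partner. A second probe set of Col4a1 differed by 2.27 (SE 0.25).

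None of the other type IV genes was called. Col4a5, whose chain pairs with those of Col4a3 and Col4a4 or of Col4a6, had 7.49, 7.45 and 7.63 at E17.5, against 7.94, 7.74 and 7.78 at E12.5. Its 3 E17.5 arrays were just below the 3 E12.5 arrays, and the difference of -0.30 (SE 0.15, 95% confidence interval -0.66 to 0.071, adjusted p = 0.285) was not called. It was called with array weights, which rest mainly on 3 of the 6 arrays (-0.31, adjusted p = 0.0121). Col4a6 lies head to head with Col4a5 on the X chromosome and stayed between 3.15 and 3.22 on every array.

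Both multiplexin genes rose. Col15a1, whose loss in mice gives a mild skeletal myopathy, had 9.07, 9.02 and 10.06 at E17.5, against 3.16, 3.32 and 2.40 at E12.5. The E12.5 arrays were all in the background range. The difference was 6.42 (SE 0.39, adjusted p = 0.00018), and 5.38 with every value under 4 raised to 4. Col18a1, the source of the antiangiogenic fragment endostatin, had 11.27, 11.29 and 11.63 at E17.5, against 8.41, 8.51 and 8.62 at E12.5. That is a difference of 2.88 (SE 0.13, adjusted p = 7.77e-05), or 7.38-fold, and a second probe set gave 2.95 (SE 0.17).

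**Figure D2:**
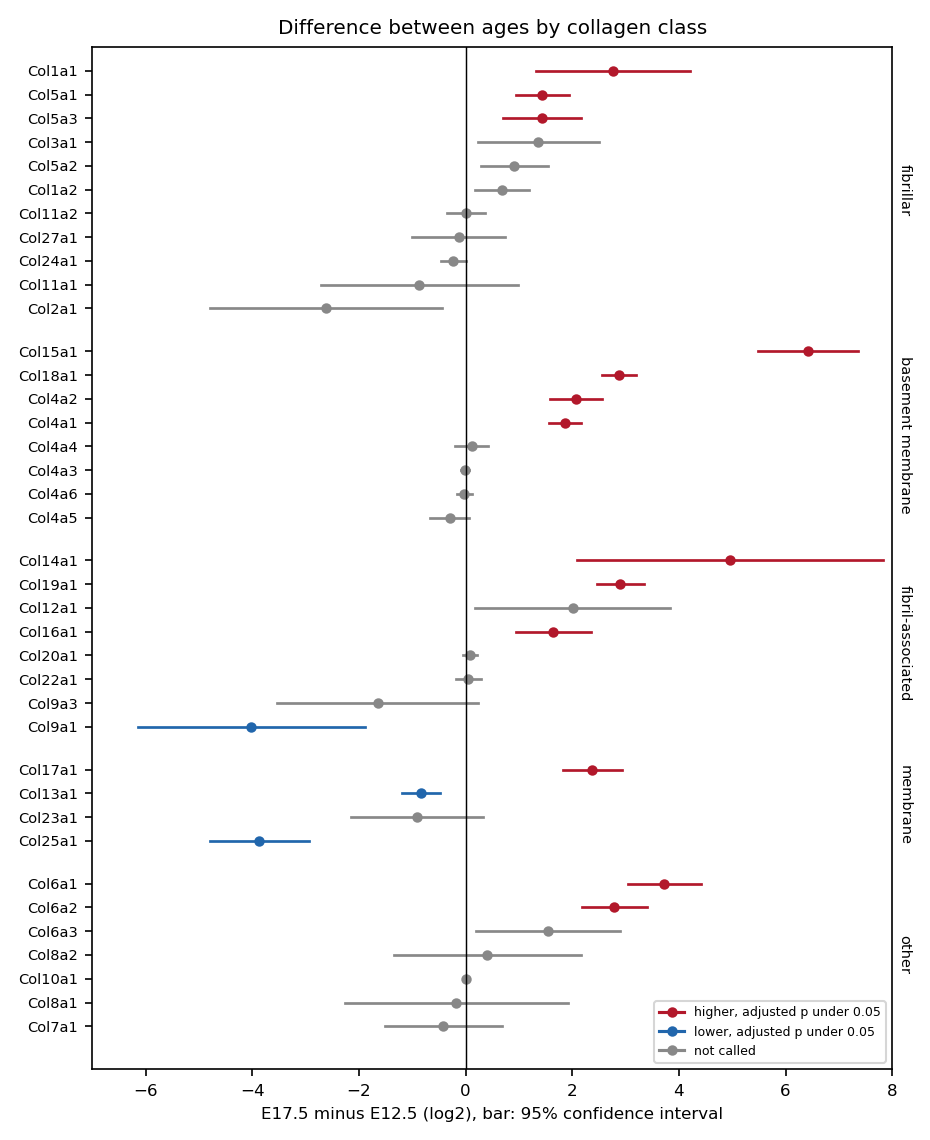
Difference between E17.5 and E12.5 (log2, points) with its 95% confidence interval (bars) for each of the 38 collagen genes, grouped by class. Red genes were called higher, blue genes lower and grey genes were not called. In the basement membrane class the 4 called genes lay at 1.87 to 6.42 and the 4 others at -0.30 to 0.11.

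Type VI collagen is assembled from the chains of Col6a1, Col6a2 and Col6a3, genes whose mutation causes muscular dystrophy in people. Col6a1 had 11.58, 12.13 and 12.68 at E17.5, against 8.5, 8.11 and 8.6 at E12.5. The difference was 3.73 (SE 0.28, adjusted p = 0.000364), or 13.2-fold. Col6a2, the next coding gene on chromosome 10, had 11.09, 11.02 and 11.88 at E17.5, against 8.70, 8.66 and 8.26 at E12.5, and rose by 2.79 (SE 0.26, adjusted p = 0.000712). For both genes the ages were far apart and E17.5 replicate C was the highest array. Col6a3 overlapped between the ages, with 9.60, 9.58 and 8.66 at E17.5 and 7.33, 8.99 and 6.86 at E12.5. Its difference of 1.55 (SE 0.57, adjusted p = 0.123) was not called. Without E12.5 replicate B, the array in which it was 1.90 above the mean of A and C, it was 2.19 (adjusted p = 0.0133). Whether the chains of type VI differed from each other in their change was not tested.

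The remaining genes of other types were not called. Col7a1, of the anchoring fibrils of skin, and Col8a1 and Col8a2, short-chain network collagens known from the cornea, differed by -0.42, -0.17 and 0.41. Col8a1 had 6.65, 6.28 and 3.98 at E17.5 and 6.12, 6.86 and 4.44 at E12.5, so that the arrays of either age were spread more widely than the ages differed.

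Of the 11 fibrillar collagens 3 were higher, none was lower and 8 were not called, with a median difference of 0.69. In this class 27.3% were called, against 16.9% of all genes. Type V collagen regulates the diameter of type I fibrils. Col5a1 had 11.47, 11.47 and 11.59 at E17.5, against 9.60, 10.40 and 10.21 at E12.5, and rose by 1.44 (SE 0.21, adjusted p = 0.00456). Its other probe sets gave 1.93 and 2.36, both called. Col5a3, a minor type V chain, had 4.3, 5.18 and 5.17 at E17.5, against 3.06, 3.57 and 3.72 at E12.5. The ages did not overlap, and the E12.5 arrays were in the background range. The difference was 1.43 (SE 0.31, adjusted p = 0.0211) but 0.88 (adjusted p = 0.107) with values under 4 raised to 4. Its call was also lost without E17.5 replicate B or C or E12.5 replicate A or B (adjusted p 0.0518 to 0.0724). Col5a2 differed by 0.91 (SE 0.26, adjusted p = 0.0598), with 12.04 ± 0.11 at E17.5 and 11.13 ± 0.55 at E12.5 and no overlap between the ages.

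The type I and type III genes, which encode the bulk fibrils of connective tissue, were higher on average but varied between arrays of one age. Col1a1 had 9.0, 9.42 and 7.5 at E17.5, against 6.28, 6.44 and 4.92 at E12.5. All E17.5 arrays were above all E12.5 arrays, and it rose by 2.76 (SE 0.61, adjusted p = 0.0236). The call was lost without E17.5 replicate A or B or E12.5 replicate C (adjusted p 0.0589 to 0.0801), and with E17.5 A and B averaged (2.48, adjusted p = 0.0773). Col1a2, its partner chain, had 13.50, 13.53 and 13.19 at E17.5, against 12.36, 13.16 and 12.64 at E12.5. The ages only just separated, and the difference of 0.69 (SE 0.21, adjusted p = 0.0764) was not called. Another probe set of Col1a2 gave 1.26 (SE 0.25, adjusted p = 0.0256 over the 34909 named probe sets).

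Col3a1 had 14.09, 14.08 and 13.73 at E17.5, against 11.70, 13.73 and 12.38 at E12.5. E12.5 replicate B equalled E17.5 replicate C, and the difference of 1.36 (SE 0.48, adjusted p = 0.109) was not called. Without E12.5 replicate B it was 1.93 (adjusted p = 0.0052). Col5a2 is the next coding gene to Col3a1 on chromosome 1.

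Among the 8 fibril-associated collagens 3 were higher, 1 was lower and 4 were not called, with a median difference of 0.86. In this class 50% were called, against 16.9% of all genes. Col19a1, known in the mouse from muscle differentiation, had 9.53, 9.31 and 9.39 at E17.5, against 6.25, 6.79 and 6.49 at E12.5. Arrays of one age lay close together, and the gene rose by 2.90 (SE 0.18, adjusted p = 0.000195), or 7.46-fold, with 2.27 from a second probe set. Col16a1 had 8.1, 8.15 and 7.9 at E17.5, against 6.25, 7.0 and 5.96 at E12.5, a difference of 1.65 (SE 0.29, adjusted p = 0.0107). That call was lost without E17.5 replicate B (adjusted p = 0.0523).

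Col14a1, which coats fibrils in tendon and skin, had 9.06, 9.15 and 8.46 at E17.5, against 2.48, 6.97 and 2.35 at E12.5. The E12.5 arrays disagreed, since replicate B was 4.55 above the mean of A and C, which were in the background range. The difference was 4.96 (SE 1.20, adjusted p = 0.0338), and it was not called in the fits without E17.5 A, B or C or without E12.5 A or C (adjusted p 0.0714 to 0.103), nor with E17.5 A and B averaged (adjusted p = 0.0951). With every value under 4 raised to 4 it was 3.9 (adjusted p = 0.0598). In all, 10 of 18 alternative fits lost the call. Without E12.5 replicate B the difference was larger, at 6.47 (adjusted p = 0.000417). A dimmer probe set gave 2.81 (SE 0.36, adjusted p = 0.00494). Col12a1, of tendon and muscle connective tissue, had 9.23, 9.06 and 6.91 at E17.5, against 5.64, 7.63 and 5.90 at E12.5. E17.5 replicate C lay below E12.5 replicate B, and the difference of 2.01 (SE 0.77, adjusted p = 0.14) was not called. It was 2.75 (adjusted p = 0.0363) without E17.5 replicate C.

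The cartilage-type collagens were lower or not called. Type IX collagen coats the type II fibrils of cartilage, and type XI lies in their core. Col9a1 had 8.75, 9.02 and 5.5 at E17.5, against 11.69, 12.12 and 11.51 at E12.5. E17.5 replicate C was 3.38 below the mean of A and B, yet all E17.5 arrays were below all E12.5 arrays, and the gene fell by 4.02 (SE 0.89, adjusted p = 0.0245). The call was lost without E12.5 replicate A, B or C (adjusted p 0.0565 to 0.078). A second probe set gave -3.23 (SE 0.53, adjusted p = 0.0125). Col19a1, which rose, is the next coding gene to Col9a1 on chromosome 1, and the pair is transcribed towards each other.

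Col2a1, the main fibrillar collagen of cartilage, had 6.79, 6.90 and 4.02 at E17.5, against 7.42, 9.75 and 8.38 at E12.5. The ages did not overlap, but the difference of -2.61 (SE 0.91, adjusted p = 0.109) was not called. Col9a3 (-1.64, SE 0.79, adjusted p = 0.241) and Col11a1 (-0.87, SE 0.77, adjusted p = 0.602) overlapped between the ages. In all of these, E17.5 replicate C was the lowest E17.5 array and E12.5 replicate B the highest E12.5 array. Col27a1, a fibrillar collagen of cartilage, differed by -0.13 (SE 0.37).

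**Figure D3:**
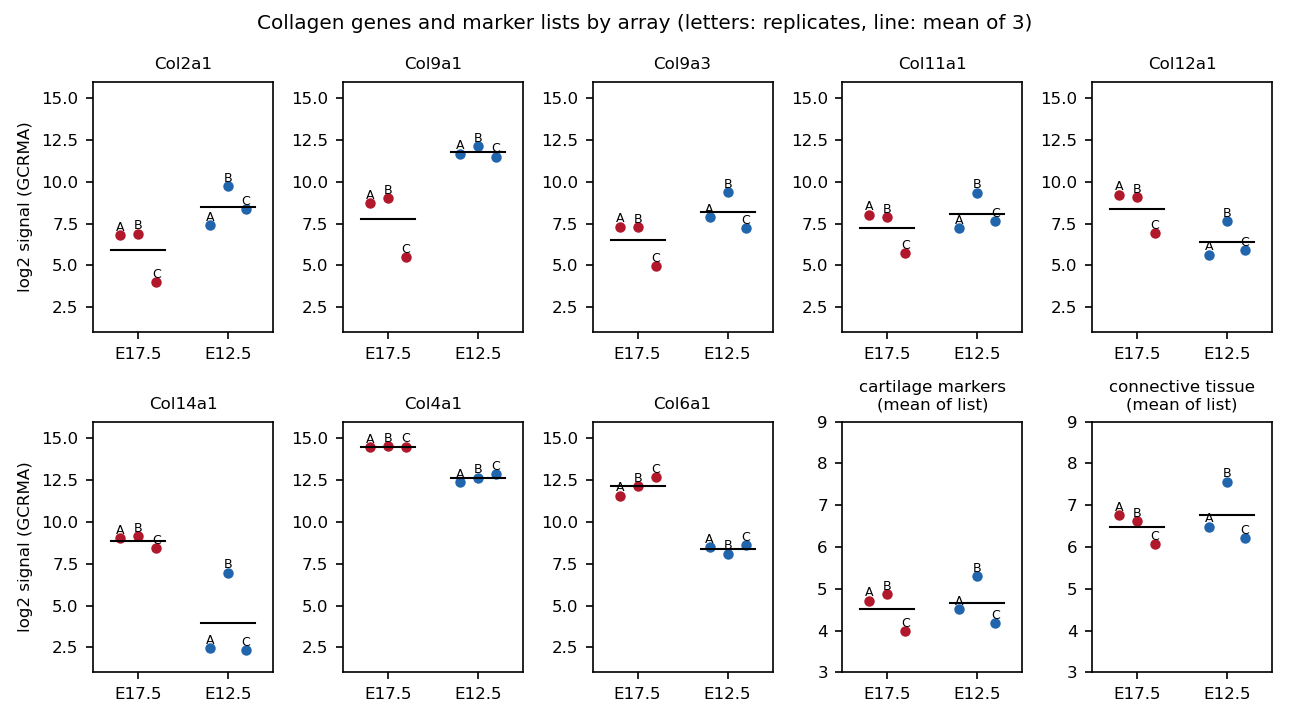
Log2 signal (GCRMA) of 8 collagen genes on each array, and the mean log2 signal of the cartilage and connective tissue marker lists, at E17.5 (red) and E12.5 (blue). Letters name the replicates and lines the means of 3. E12.5 replicate B is high and E17.5 replicate C low in Col2a1, Col9a3, Col11a1 and Col12a1 and in both marker lists, whereas Col4a1 and Col6a1 separate by age on every array.

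Membrane collagens were divided, with 1 gene higher, 2 lower and 1 not called (median difference -0.87). In this class of 4 genes 75% were called, against 16.9% of all genes. Col17a1, the hemidesmosome collagen of skin epithelium, had 7.83, 7.59 and 8.1 at E17.5, against 5.28, 5.45 and 5.65 at E12.5. It rose by 2.38 (SE 0.23, adjusted p = 0.000891), or 5.21-fold. Of the 10 epidermis markers none was called higher and 3 were called lower, which is 30%, against 16.9% of all genes. These were Epcam (-4.10), Trp63 (-2.39) and Cdh1 (-1.44). With values under 4 raised to 4, Epcam was at -3.20 and Cdh1 at -0.47, no longer called. Perp had 7.32, 7.06 and 6.93 at E17.5, against 6.45, 6.92 and 5.63 at E12.5, and was not called. The summed signal of the epidermis markers, on the linear scale, ranged from 400 to 474 at E17.5 and from 588 to 1290 at E12.5. The part of epithelial cells in the Col17a1 difference was not tested.

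Col25a1, which muscle cells of the mouse need to attract motor axons, had 5.65, 5.38 and 5.10 at E17.5, against 9.35, 9.93 and 8.44 at E12.5. The ages were well separated, and the gene fell by 3.86 (SE 0.39, adjusted p = 0.00107). Its other probe set stayed between 1.68 and 1.70 on every array. Col13a1, a collagen of the neuromuscular junction, had 7.80, 7.53 and 7.73 at E17.5, against 8.40, 8.56 and 8.61 at E12.5. The fall was smaller, at -0.84 (SE 0.15, adjusted p = 0.0106), and its call was lost without E17.5 replicate B (adjusted p = 0.059). Col23a1 had 5.54, 5.74 and 6.13 at E17.5, against 6.35, 7.88 and 5.91 at E12.5. The ages overlapped, and the difference of -0.91 (SE 0.52, adjusted p = 0.34) was not called. That difference was -0.33 without E12.5 replicate B.

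Certain arrays stood apart from the others of their age. E17.5 replicates A and B were nearly alike: the SD of their gene-by-gene difference was 0.152 (among genes averaging 6 or more), against 0.412 to 0.551 in the other pairs of one age, and no member differed between them by 1 or more, against 2 to 16 members in the other pairs. With these arrays averaged and counted as 1 sample, 11 members were higher and 3 lower, and 10.2% of all genes were called. E12.5 replicate B exceeded the mean of A and C by at least 1 in 12 members and fell below it by as much in 0. Without this array 16 members were higher and 2 lower, and 13.4% of all genes were called. E17.5 replicate C was at least 1 below the mean of A and B in 8 members and as far above it in 1 (Col15a1). The share of all genes with shifts of this size was not computed. Of 8758 genes averaging 6 or more, 276 to 596 differed by at least 1 in pairs of one age other than E17.5 A and B. Without E17.5 replicate C, 12 members were higher and 3 lower, and 18.1% of all genes were called. Among the basement membrane collagens the medians of these shifts were -0.0025 for E12.5 B and 0.11 for E17.5 C, while among the fibrillar collagens they were 0.84 and -0.33. The same 4 basement membrane genes were called in each of these fits.

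Several markers of other cell types moved with these arrays. Counts of markers called between the ages are to be set beside the 16.9% called over all genes. For the shifts of single arrays no such share was computed. E12.5 B was at least 1 above the mean of A and C for 6 of 10 endothelial and 4 of 7 tendon markers. The same held for 4 of 10 epidermis, 4 of 9 blood and 1 of 9 pericyte and smooth muscle markers. As far below that mean were 1 tendon marker (Egr1) and 1 myogenic marker. E17.5 C was at least 1 below the mean of A and B for 4 tendon, 4 connective tissue and 3 pericyte and smooth muscle markers. For endothelial, bone, epidermis and blood markers the counts were 2, 1, 0 and 0. Of the 14 cartilage markers 6 were at least 1 higher in E12.5 B than in A and C, and 5 were at least 1 lower in E17.5 C than in A and B. Their summed signal, on the linear scale, ranged from 695 to 913 at E17.5 and from 448 to 1501 at E12.5, and between the ages 0 of the 14 rose and 1 fell (Sox5, -2.67, or -1.71 and no longer called with values under 4 raised to 4). Sox9, the master regulator of cartilage, was at 7.54 ± 0.03 at E17.5 and 8.29 ± 0.95 at E12.5, while the cartilage matrix gene Acan was under 4 on average at both ages. Of the 15 connective tissue markers 7 were at least 1 higher in E12.5 B, 1 rose between the ages (Dpt, 9.04) and 5 fell, including Pdgfra (-3.68), Prrx2 (-2.18) and Twist2 (-3.21, or -2.76 and no longer called with the floor at 4). Dpt was in the background range at E12.5, and its difference was 7.14 with that floor. Their summed signal ranged from 9249 to 9908 at E17.5 and from 7277 to 14190 at E12.5. Of the 7 tendon markers 2 rose (Tnmd, 4.38, or 3.56 with the floor, and Thbs4, 3.4) and Mkx fell (-3.41). The immediate early gene Egr1, listed among them, held 26.8% to 95.7% of their summed signal, and without it the sum ranged from 380 to 1159 at E17.5 and from 435 to 1075 at E12.5. In these sorted bulk samples fewer cells of a type and less RNA per cell cannot be told apart, and the part of such cells in the collagen differences was not tested.

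The sorted cells carried myogenic genes at both ages. Here too the counts are to be set beside the 16.9% called over all genes. Of 12 myogenic markers 6 rose and 1 fell, and Pax7 was at 12.37 ± 0.15 at E17.5 and 11.46 ± 0.28 at E12.5. Of 10 endothelial markers 6 reached a mean of 4 at one age or both. Tek rose by 4.88 and the other 9 were not called, among them Egfl7, at 7.43 ± 0.25 at E17.5 and 7.10 ± 0.35 at E12.5, and Pecam1, at 2.32 ± 0.01 at E17.5 and 2.33 ± 0.12 at E12.5. Of 9 blood markers 2 rose, the macrophage gene Cd68 (2.99, or 2.52 with the floor) and Lyz2 (1.06, or 0.72 and no longer called with the floor), and 2 fell, the embryonic globin genes Hbb-y (-10.4, or -9.93 with the floor) and Hba-x (-4.33, or -2.99 and no longer called with the floor). The leukocyte gene Ptprc was under 4 at both ages. Of 9 pericyte and smooth muscle markers 4 rose (Tagln, 5.22, Rgs5, 3.89, or 3.36 with the floor, Cspg4, 1.90, and Abcc9, 1.45, or 1.15 and no longer called with the floor) and 2 fell (Pdgfrb, -3.84, and Acta2, -0.49). Acta2 held 66.7% to 86.4% of their summed signal, and without it the sum ranged from 4088 to 5111 at E17.5 and from 2536 to 3041 at E12.5. Of 5 bone markers Dmp1 rose (4.89) and the osteoblast genes Sp7 and Ibsp stayed under 4. Of 7 Schwann and neural crest markers 3 fell, Ngfr by 3.65, Erbb3 by 2.80 and Mbp by 1.06 (-0.45 and no longer called with the floor), and Sox10 was under 4 at both ages.

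Genes that build, bind or cut collagens were set beside the family. Over all genes 8.21% were higher and 8.73% lower, so that 16.9% were called. Of 19 measured enzymes and chaperones of collagen modification and folding 5 rose and 1 fell (31.6% called), with a median of 0.22. The prolyl 3-hydroxylase gene P3h2, which acts on type IV collagen, rose by 1.70 (SE 0.22, adjusted p = 0.00288) and Sparc, a collagen-binding chaperone-like protein, by 1.60, while P4ha3, a prolyl 4-hydroxylase subunit, fell by 2.71. The collagen chaperone Serpinh1 was at 12.60 ± 0.42 at E17.5 and 12.38 ± 0.06 at E12.5 and was not called. Of 12 processing and crosslinking genes 3 rose and 3 fell (50% called, median -0.0034). Tgm2 rose by 2.0 and Pxdn, the peroxidase that crosslinks type IV collagen, by 1.10. Pcolce2, an enhancer of procollagen cleavage, and Lox, the lysyl oxidase, fell by 4.90 and 1.73. Pcolce2 was in the background range at E17.5, and its difference was -4.28 with the floor.

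Of 11 collagen receptors only Itga1 was called, which is 9.09%, against 16.9% of all genes. Itga1, the integrin subunit that binds type IV collagen, rose by 3.70 (SE 0.21, adjusted p = 0.00014). Its E12.5 arrays were in the background range, and the difference was 2.58 with the floor (adjusted p = 0.00117). Ddr1, a receptor kinase for collagen, differed by 0.43 (SE 0.17, adjusted p = 0.15). Of 11 genes of collagen degradation 2 rose, the inhibitor genes Timp3 (2.39) and Timp2 (0.91), and 1 fell, the membrane protease gene Mmp14 (-0.51). That is 27.3% called. Of 16 fibril-binding proteoglycans and partners 5 rose and none fell (31.25% called, median 1.34), and Dpt and Bgn (4.95) were among the risen. Of 19 basement membrane partners 10 rose and 2 fell (63.2% called, median 0.99), where 8.21% of all genes were higher. Pxdn and Sparc, named above, were counted in this list as well. Among them the laminin genes Lama4 and Lamc1 rose by 2.73 and 2.72, and Smoc1 and Nid2 fell by 2.62 (2.15 with the floor) and 1.93. Members of these lists were not chosen independently of earlier results, and the counts describe the lists only.

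Where a member had several probe sets they gave the same direction when both had signal. Of 37 further probe sets of the members, 17 had a mean of at least 4, and all 17 had the sign of the probe set used. Set beside the call of the gene, 16 of these 17 gave the same call, the exception being the second probe set of Col1a2 described above. The other 20 had a mean under 4, as for Col25a1.

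**Figure D4:**
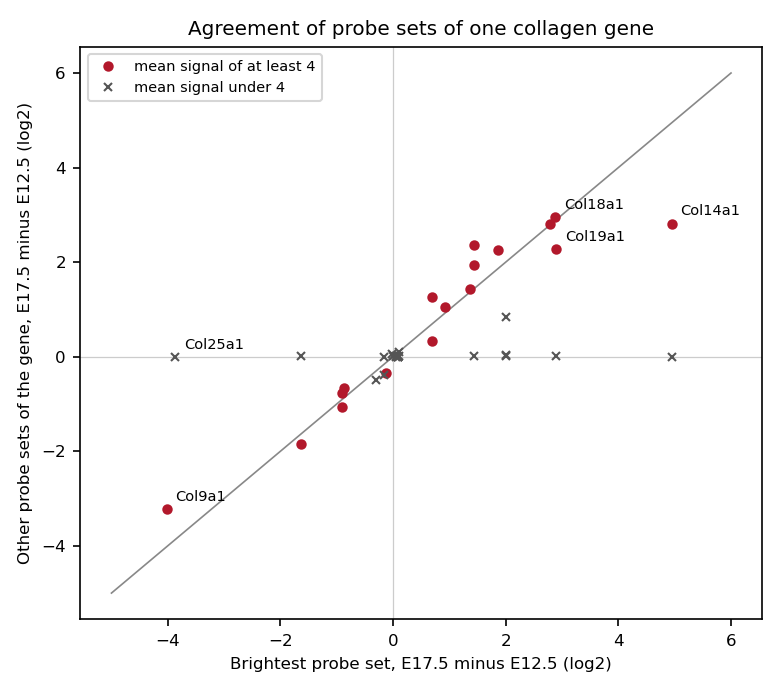
Difference between E17.5 and E12.5 (log2) of each further probe set of a collagen gene (vertical axis) against that of the brightest probe set of the gene (horizontal axis). The line marks equality. Probe sets with a mean signal of at least 4 (circles) share the sign of the brightest one in 17 of 17 cases, and those under 4 (crosses) lie between -0.49 and 0.84.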

How the data were processed

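Each deposited value is the log2 signal of a probe set on a single-colour Affymetrix array. Per the submitters' processing notes the authors used GCRMA (which version is not given in the sources used here). Per the labels' protocols the sorted cells came from trypsin-treated limbs, and 100 ng of RNA went through a 2-cycle amplification from the 3' end. Array medians lay between 3.38 and 3.47, and no further normalization was applied. The number of arrays limits the precision.

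Genes were assigned by the platform annotation, with symbols brought up to date through entrez IDs (RefSeq, GRCm38.p6). Of 44994 probe sets 34909 carried 1 symbol. Another 931 carried several and were dropped, and 9154 had no name here. The two-sided test was limma 3.58.1 (R 4.3.3), with lmFit, an intensity trend in eBayes and Benjamini-Hochberg adjustment over 18182 genes. Neighbouring genes and promoter windows came from RefSeq tables. The fit was tested on simulated data in 10 runs. It recovered 58.2% of the 2-fold and 84.9% of the 4-fold changes put in, and 5.6% of its calls fell on unchanged genes. A gene that was not called can therefore still differ between the ages. The simulation changed 200 genes, against 3080 called in the real comparison, so recovery there can be different.

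Values per array are given for called members and for the brightest uncalled member of each class; further uncalled members were added after their values were seen. Of each other pathway list up to 2 risen and 2 fallen genes were named, by size among called genes averaging 6 or more at one age. A few further genes of the pathway and marker lists were added after their values were seen. The members, lists and tests were chosen with earlier results of these data known. Figures were drawn with matplotlib 3.10.9.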

Additional observations from a re-analysis of the deposited data

How the results depend on the processing

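The calls were repeated under 18 alternative fits and 2 other thresholds. Of the 16 called members 10 were called in every fit: Col4a1, Col4a2, Col15a1, Col18a1, Col6a1, Col6a2, Col5a1, Col19a1, Col17a1 and Col25a1. Over the 16 called and 5 of the uncalled members, 340 of 377 values stayed on the same side of the threshold, 29 lost a call, 8 gained one and 0 changed sign. Array weights called 46.3% of all genes (3204 higher, 5219 lower), against 16.9% without them, and gave 20 members higher and 6 lower, with 6 higher and 1 lower among fibrillar, 2 lower among basement membrane and 5 higher among other collagens, but the weights favoured E17.5 A and B, which were nearly alike (4.97 and 3.24, against 0.14 for E17.5 C). When only genes averaging 4 or more were kept, the fibrillar collagens had 5 higher, and at 6 or more they had 5 higher and 1 lower. Calls also rose over all genes tested in these fits, to 34.2% and 33.2%. With values under 4 raised to 4, 1 fibrillar collagen was higher and 0 fibril-associated ones lower, as were 0 without the intensity trend. Of all genes, 13.1% were called with that floor and 17% without the trend. At an adjusted p under 0.01, 9 members were higher (1 fibrillar, 4 basement membrane, 1 fibril-associated, 1 membrane and 2 other). At that threshold 1 member in all was lower (0 fibril-associated, 1 membrane). The share of all genes called at 0.01 was not computed, so these counts stand without a background. With an adjusted p under 0.05 and a fold of at least 2, 1 membrane collagen was lower, and 10.8% of all genes were called. With the replicate block 14 members were higher and 2 lower, 1 of them a membrane collagen, since Col13a1 missed the threshold (adjusted p = 0.0558). That fit called 11.6% of all genes. Deviations of same-lettered arrays from their age means correlated at -0.38 (A), 0.255 (B) and -0.07 (C). With only 3 arrays at each age such deviations depend on one another. They cannot show whether the letters pair the arrays. The cause of these shifts was not tested.

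Leaving out 1 array gave 9 to 16 members higher and 2 to 3 lower. Over all genes these fits called 9.58% (without E17.5 replicate B) to 18.3% (without E12.5 replicate A). The fibrillar count of rises ranged from 1 (without E17.5 replicate B) to 5 (without E12.5 replicate B). The fibril-associated count ranged from 1 (without E17.5 replicate B) to 3 for rises and from 0 (without any one E12.5 replicate) to 1 for falls, and the membrane count from 1 (without E17.5 replicate B) to 2 for falls. The basement membrane count was 4 throughout. When the probe sets of a gene were averaged, differences shrank by over 1.5 times for Col25a1 (-1.94), Col14a1 (2.59), Col19a1 (1.73), Col12a1 (0.72) and Col5a3 (0.72), where a probe set without signal was averaged in.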

Other observations

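Several genes with a collagen domain outside the listed members were on the arrays. They were chosen after their values were seen. C1qtnf3, a secreted protein of the C1q and TNF family with a collagenous stalk, stood at 11.19 ± 0.10 at E17.5 and 6.88 ± 0.60 at E12.5 (difference 4.31). Eda, the transmembrane ligand ectodysplasin with a collagenous stretch, was higher by 1.80, and the scavenger receptor gene Colec12 by 1.13. Col26a1 was at 11.38 ± 0.13 at E17.5 and 10.87 ± 0.37 at E12.5 and was not called. Cthrc1, a collagen triple helix repeat protein, was not called either (-1.02), with 7.99, 8.06 and 5.59 at E17.5 and 7.32, 9.85 and 7.52 at E12.5. Col6a4, Col6a5 and Colq, the collagenous tail of acetylcholinesterase, stayed under 4 at both ages.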
